A study of Mus musculus with 12 samples.

Results

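The genes described here are 40 mouse genes of glycolysis and of the response to low oxygen. They were listed by symbol for their known role, and the rule itself used no measured value, although the list was drawn up with earlier results of these data known. Every symbol matched 1 of the 55357 gene identifiers in the tables. By role they were 16 glycolytic enzymes, 6 carriers and regulators of glycolysis, 4 subunits and prolyl hydroxylases of the hypoxia-inducible factor (HIF), and 14 other genes that HIF is known to induce.

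Glycolysis breaks glucose down to pyruvate in the cytosol, and lactate dehydrogenase turns pyruvate into lactate when it is not passed to the mitochondria. HIF is a transcription factor whose alpha subunit is marked for destruction by oxygen-dependent prolyl hydroxylases and accumulates when oxygen falls or the hydroxylases fail. It binds a short core motif near its target genes and raises the transcripts of glucose carriers, most glycolytic enzymes, angiogenic factors and genes of mitochondrial clearance. Macrophages rely on glycolysis for much of their energy, whereas the hepatocyte uses its own isoforms for several steps and can run the pathway in reverse.

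The study examined esculetin, a plant coumarin, in the liver and in lipid-loaded macrophages. RNA sequencing was performed in 12 libraries, 3 in each of 4 groups. The liver groups were male C57BL/6J mice aged 8 to 9 weeks, which were gavaged for 7 days with esculetin at 90 mg/kg/d or with 2.5% Tween-80, while their food drew 10% of its energy from fat on 4 days and 60% (high-fat diet, HFD) on 3 days. The cell groups were RAW264.7 cells, a mouse macrophage line, kept 24 h with 25 µg/mL DIL-oxLDL, a dye-labelled oxidised low-density lipoprotein, together with DMSO or esculetin at 40 µg/mL. Controls and treated mice shared the diet, and controls and treated cells shared the oxLDL, so neither table held a group without that load. A liver sample was a pool of 2 mice. Nothing stated whether the cell replicates came from separate cultures, and p-values therefore measure only the spread between these samples.

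The libraries held 14659876 to 20346460 counts in the liver and 13752842 to 20001959 in the cells. The hepatocyte markers summed to 106700 to 134200 CPM (counts scaled to a common library size) in the livers, and the macrophage markers to 2220 to 2386 CPM in control cells and 4908 to 7409 CPM in esculetin cells, with all 7 macrophage markers detected. The most abundant of the 7 was Csf1r in control cells, at 791 to 882 CPM, and Lyz2 in esculetin cells, at 2584 to 4704 CPM. In the cells the hepatocyte markers summed to at most 1.24 CPM. Of the 5 Kupffer cell markers, Clec4f, Vsig4, Timd4 and Marco were at 0 in all control cells, where Cd5l had 2.02 to 2.21 CPM. In esculetin cells only Timd4 was at 0, and the markers summed to 0.293 to 1.02 CPM. Esculetin cell library 1 held 2.40% ribosomal RNA against 0.129% to 0.199% in the other cell libraries, and liver control library 1 held 6.35% mitochondrial counts against 3.60% to 4.59% in the other livers. Without esculetin cell library 1 the count of members called in the cells was 26, against 24 with it, and without liver control library 1 the count in the liver was 0, as with it. The share of all genes called without either library was not counted.

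HIF is known through its motif, so the 250 bases before a RefSeq start site are given for 5 members that rose, fell or were not called in the cells. Capitals mark the HIF core ACGTG or its variant GCGTG, or either one on the opposite strand (CACGT and CACGC), and an overlap such as CACGTG is printed as 1 block. Windows were taken from RefSeq on build GRCm38 and matched without a difference to GRCm39, whose coordinates are used. Slc2a1, the glucose carrier GLUT1, and Bnip3, a mitophagy receptor, rose in the cells. Pgk1, phosphoglycerate kinase, and Slc16a1, the lactate and pyruvate carrier MCT1, fell. The call was not made for Ldha, lactate dehydrogenase A. Ldha has more than 1 RefSeq start site. The one shown lies 4329 bases from the annotated gene start and has 5 core matches, with overlapping matches counted apart. Another, at 5607 bases, has 1 match in its 250 bases and is not shown.
Slc2a1, plus strand, chr4:118965692-118965941: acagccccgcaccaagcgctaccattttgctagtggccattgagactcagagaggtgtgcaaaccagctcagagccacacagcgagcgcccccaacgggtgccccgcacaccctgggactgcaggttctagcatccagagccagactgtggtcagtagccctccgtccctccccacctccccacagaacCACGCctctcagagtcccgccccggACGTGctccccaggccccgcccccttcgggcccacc
Bnip3, minus strand, chr7:138511236-138511485: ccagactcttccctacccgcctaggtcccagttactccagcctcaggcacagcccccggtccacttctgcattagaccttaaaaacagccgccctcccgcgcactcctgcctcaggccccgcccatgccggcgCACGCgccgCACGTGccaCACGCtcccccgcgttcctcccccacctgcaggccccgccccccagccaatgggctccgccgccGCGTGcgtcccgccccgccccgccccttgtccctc
Pgk1, plus strand, chrX:105230456-105230705: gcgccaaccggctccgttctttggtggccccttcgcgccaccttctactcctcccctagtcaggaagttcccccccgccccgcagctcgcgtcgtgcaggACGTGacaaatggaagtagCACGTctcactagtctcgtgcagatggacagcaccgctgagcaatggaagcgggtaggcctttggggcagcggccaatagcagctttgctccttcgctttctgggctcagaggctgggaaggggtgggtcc
Slc16a1, plus strand, chr3:104545730-104545979: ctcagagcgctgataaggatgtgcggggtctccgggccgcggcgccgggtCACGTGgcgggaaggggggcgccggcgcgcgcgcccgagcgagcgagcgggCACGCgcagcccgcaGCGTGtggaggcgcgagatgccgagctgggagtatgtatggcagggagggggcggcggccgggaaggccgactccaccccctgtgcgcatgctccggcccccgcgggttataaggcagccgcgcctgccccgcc
Ldha, plus strand, chr7:46494978-46495227: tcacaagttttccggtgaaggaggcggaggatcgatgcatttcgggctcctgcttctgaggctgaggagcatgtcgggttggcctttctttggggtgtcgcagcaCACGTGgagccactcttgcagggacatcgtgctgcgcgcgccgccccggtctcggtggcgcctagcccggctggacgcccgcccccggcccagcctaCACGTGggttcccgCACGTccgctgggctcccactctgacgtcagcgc

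Shares were counted over the whole RefSeq window of 300 bases, which adds the 50 bases after the start. The core or its variant was found in 45 of 56 such windows of the 37 members with one, or 80.4%, and in 44 of the 56 within the 250 bases before the start. Among 21262 windows of protein-coding genes of the same length, 49.3% held it. ACGTG alone was found in 53.6% of the members' windows against 20.9% of the protein-coding windows, and CACGTG, a motif that other factors also bind, in 12.5% against 7.84%. The members' windows were also richer in CG dinucleotides, with a median of 23 per window against 13. By the call in the cells, the share with a core was 73.7% of 19 windows of members that rose, 80% of 15 windows of members that fell and 85.7% of 21 windows of members not called. Members of all 3 kinds thus carried the motif, and a match in these windows is a description of the letters, not of binding.

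In oxLDL-treated RAW264.7 cells, the members were called in both directions. Of 38 members tested, 24 passed the edgeR quasi-likelihood test at a Benjamini-Hochberg adjusted p-value under 0.05, where 57.7% of all 13277 tested genes passed. Among them 15 were higher with esculetin and 9 lower, where 28.7% of all tested genes were higher and 29.0% lower. The median log2 fold change was 0.13 over the members tested and -0.01 over all tested genes. Glycolytic enzymes, with 4 higher and 6 lower, had a median of -0.11, and the members other than glycolytic enzymes, with 11 higher and 3 lower, one of 0.28. Epas1 and P4ha2 were too low in the cells to be tested. Counting only calls with a fold change over 1.5 as well left 10 of the 38 members tested, where 36.5% of all tested genes passed both.

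**Figure D1:**
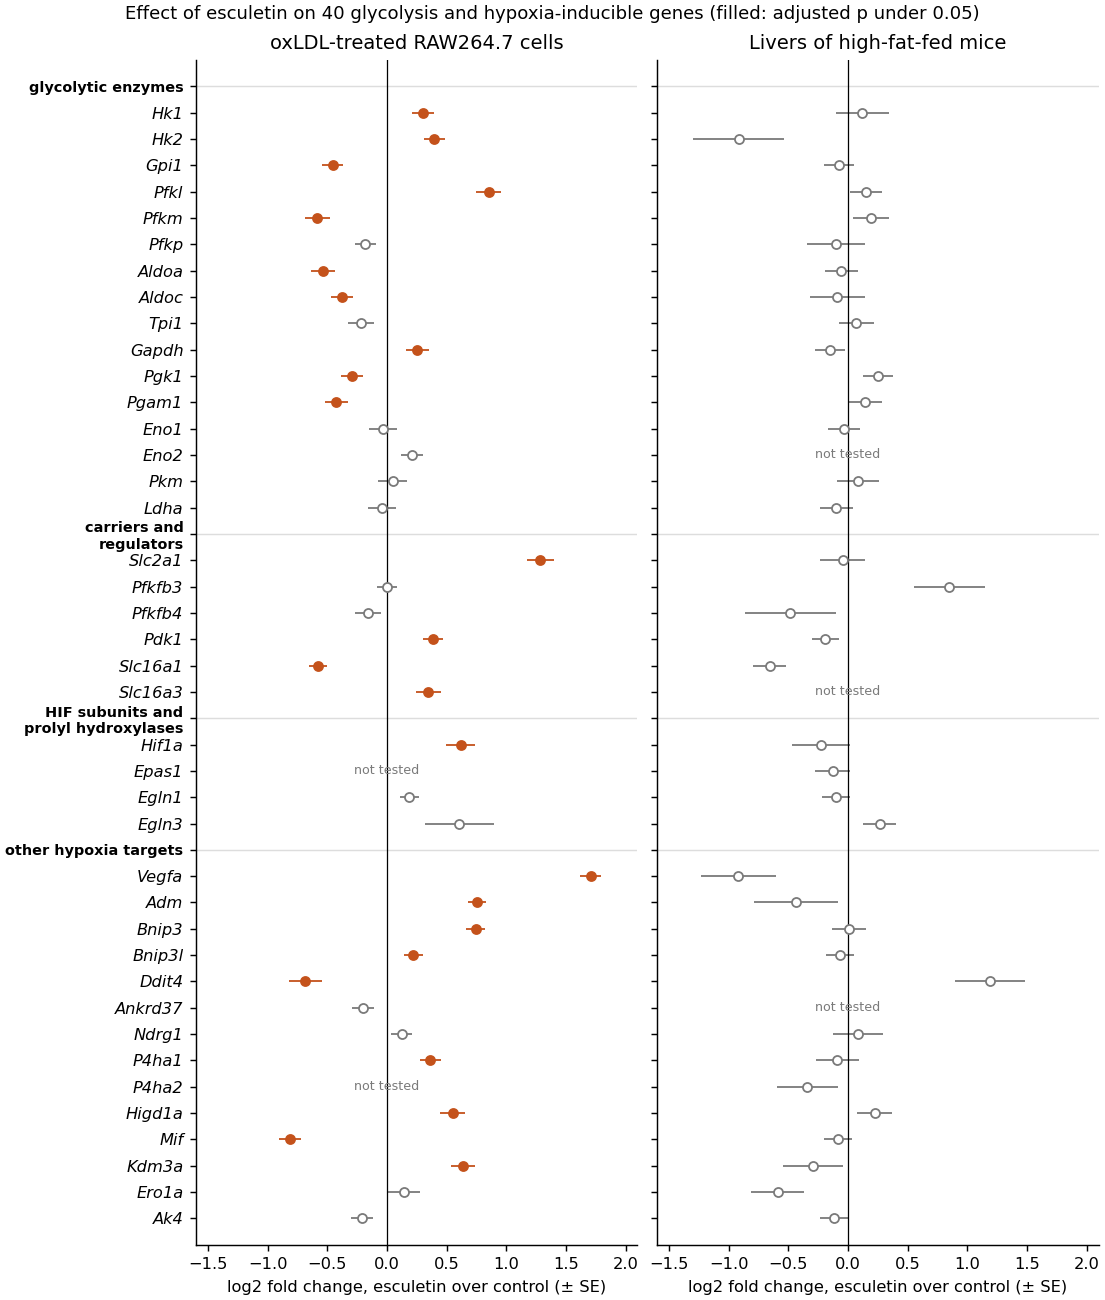
The log2 fold change with esculetin (x axis, ± SE) of each member (rows, grouped by role) in RAW264.7 cells (left) and livers (right), 3 libraries per group; filled points passed an edgeR adjusted p-value under 0.05. In the cells 15 filled points lie right of 0 and 9 left of it, led by Vegfa at 1.71 and Mif at -0.81, and no liver point is filled.

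The glucose carrier Slc2a1 and both hexokinases among the 40 rose. Slc2a1, which carries glucose across the plasma membrane, had 456, 513 and 501 CPM in control cells and 1010, 1209 and 1367 CPM in esculetin cells. All esculetin libraries lay above all controls. The fold change was 2.44 (log2 1.29 ± 0.12 SE, edgeR adjusted p = 4.38e-06), the highest of the 22 genes of the glycolytic route.

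Hexokinases trap glucose as glucose 6-phosphate. Hk1, the housekeeping form, went from 545.5 ± 31.5 CPM to 673 ± 57.8 CPM (SD, n = 3 libraries; log2 0.30 ± 0.09, edgeR adjusted p = 0.0153). Hk2, the inducible form, had 199, 204 and 202 CPM in the controls and 244, 259 and 294 CPM with esculetin, a log2 fold change of 0.40 ± 0.09 (edgeR adjusted p = 0.00228). Neither pair of groups overlapped. Gpi1, glucose-6-phosphate isomerase, lies between hexokinase and phosphofructokinase and fell from 2602 ± 119 to 1898 ± 40.1 CPM (log2 -0.46 ± 0.09, edgeR adjusted p = 0.00118).

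Phosphofructokinase, the main control point of the pathway, is made from 3 genes that moved apart. The liver-type gene Pfkl had 229, 263 and 258 CPM in the controls and 404, 425 and 524 CPM with esculetin, a fold change of 1.80 (log2 0.85 ± 0.11, edgeR adjusted p = 5.17e-05). The muscle-type gene Pfkm had 109, 124 and 122 CPM and then 83.4, 85.7 and 68.0 CPM (log2 -0.59 ± 0.10, edgeR adjusted p = 0.000584). For the platelet-type gene Pfkp, the most abundant of them, the values were 1224 ± 34.7 and 1080 ± 47.2 CPM (log2 -0.18 ± 0.09), and the call was not made (edgeR adjusted p = 0.0929). Per kilobase of merged exons, Pfkl made up 17.5% to 18.5% of the summed phosphofructokinase level in control cells and 28.9% to 36.8% in esculetin cells. The share of Pfkp was 68.9% to 70.6% and then 56.4% to 62.6%, and that of Pfkm 11.9% to 12.6% and then 6.85% to 8.77%. None of these ranges overlapped, and with the length of the canonical transcript instead, Pfkl went from 15.6% to 16.7% up to 26.0% to 33.3%.

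Among the hexokinases, the share shifted toward a gene outside the 40. Hk3, the form found mainly in blood cells, had 43.1, 47.9 and 50.4 CPM in control cells and 156, 182 and 234 CPM in esculetin cells (log2 2.02 ± 0.14, edgeR adjusted p = 7.07e-07). Its share of the summed hexokinase level per kilobase was 9.76% to 10.6% in the controls and 24.6% to 29.3% with esculetin. Hk1 held 63.9% to 65.5% and then 49.2% to 53.7%, although its own level rose.

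**Figure D2:**
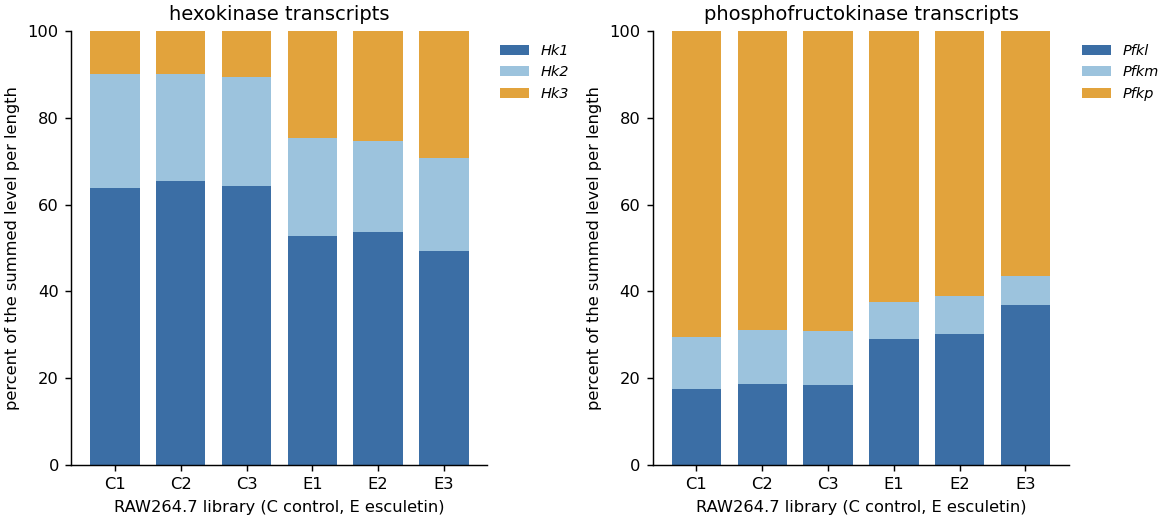
Share of each hexokinase gene (left) and phosphofructokinase gene (right) in the summed level per kilobase of merged exons (y axis, percent) in each RAW264.7 library (x axis; C control, E esculetin). In all 3 esculetin libraries Hk3 takes 24.6% to 29.3% of the hexokinase level and Pfkl 28.9% to 36.8% of the phosphofructokinase level, above all controls.

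Both aldolases fell. Aldoa, the main aldolase, had 3975, 4667 and 4464 CPM in control cells and 2891, 2981 and 3150 CPM in esculetin cells. The esculetin libraries were 68.8% of control by the fitted fold change (log2 -0.54 ± 0.10, edgeR adjusted p = 0.000755). Aldoc, the second aldolase gene, fell from 545.5 ± 44.5 to 421 ± 28.7 CPM (log2 -0.37 ± 0.09, edgeR adjusted p = 0.00454). For Tpi1, triose-phosphate isomerase, the groups overlapped at 1570 to 1785 CPM and 1304 to 1652 CPM (log2 -0.22 ± 0.11, edgeR adjusted p = 0.102).

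Pgk1, the first step that yields ATP, had 4350, 4477 and 4362 CPM in the controls and 3514, 3536 and 3714 CPM with esculetin (log2 -0.29 ± 0.09, edgeR adjusted p = 0.0155). Pgam1, phosphoglycerate mutase, fell from 1733 ± 76.9 to 1293 ± 109 CPM (log2 -0.42 ± 0.10, edgeR adjusted p = 0.00296). In both genes every esculetin library lay under every control.

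The last steps, by contrast, were not called. Pkm, pyruvate kinase, had 10790, 12500 and 12260 CPM in control cells and 10610, 12130 and 14060 CPM in esculetin cells (log2 0.05 ± 0.12, edgeR adjusted p = 0.743). Ldha had 2824, 3058 and 3087 CPM and then 2536, 2793 and 3390 CPM (log2 -0.04 ± 0.12, edgeR adjusted p = 0.782). The groups of both genes overlapped, and esculetin library 3 was the highest of all 6 in each. Eno1, enolase 1, had a log2 fold change of -0.04 ± 0.12 (edgeR adjusted p = 0.809), and Eno2, the neuronal form, one of 0.21 ± 0.09 (edgeR adjusted p = 0.0782).

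Gapdh, the glyceraldehyde-3-phosphate dehydrogenase gene often used as a loading reference, needs a separate account because near-identical copies of it were counted as genes of their own. At its own locus (chr6:125135289-125143518, GRCm39) it rose by a log2 fold change of 0.26 ± 0.09 (edgeR adjusted p = 0.0361), with 224, 265 and 251 CPM in control cells and 318, 295 and 269 CPM in esculetin cells. A search of the annotated transcripts found 80 near-identical copies, of which 70 were annotated as pseudogenes, with at least 95% identity over at least 500 bases. In the cells 93.5% of the family's counts were assigned to copies rather than to Gapdh.

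Most of these counts lay at 1 locus, and whether they came from that locus or from Gapdh was not tested. Gm13394, annotated as a transcribed processed pseudogene on chromosome 2 (chr2:28823622-28824621, GRCm39, minus strand), matched the Gapdh transcript over 1000 bases with 99.9% identity. The difference is a single base, at position 586 of the canonical Gapdh transcript. It is shown in capitals in the stretch around it, since only reads across this base could tell both loci apart within the match.
Gapdh: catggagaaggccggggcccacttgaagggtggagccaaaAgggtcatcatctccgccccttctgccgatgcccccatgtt
Gm13394: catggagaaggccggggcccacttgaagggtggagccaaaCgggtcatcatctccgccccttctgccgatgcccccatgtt

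Gm13394 held 64694, 76134 and 79930 counts in control cells and 45375, 49481 and 61134 in esculetin cells, whereas Gapdh held 4317 to 5149 and 4325 to 4830. In the liver libraries the order was the reverse, with 212 to 288 counts at Gm13394 and 2005 to 3290 at Gapdh. The log2 fold change of Gm13394 in the cells was -0.17 ± 0.10 (edgeR adjusted p = 0.183). When counts of Gapdh and its copies were summed, an alternative added after the values were seen, the log2 fold change was -0.14 ± 0.10 (edgeR adjusted p = 0.259). The call for Gapdh thus held for the counts at its own locus alone, and the direction turned, without a call, once the copies were added.

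**Figure D3:**
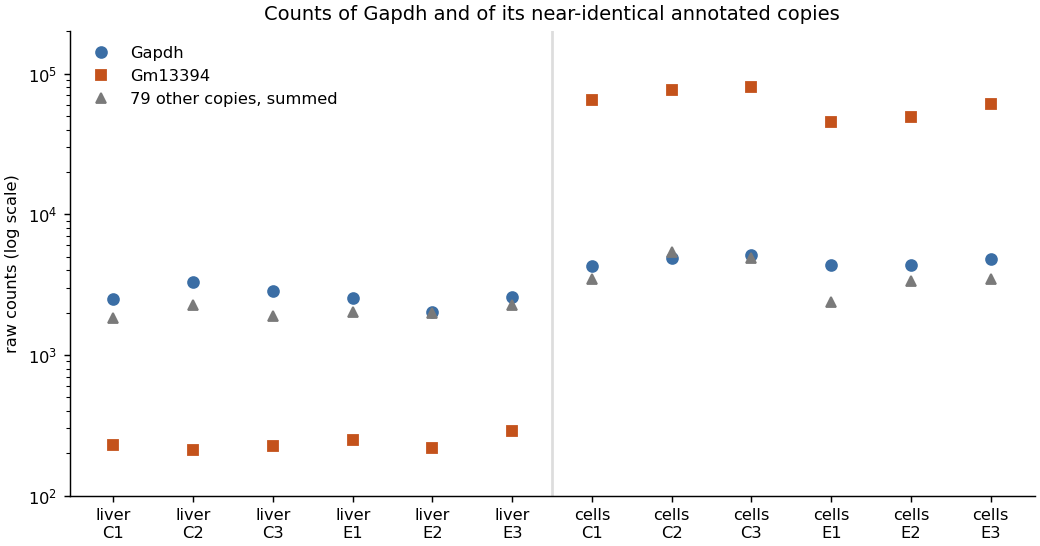
Raw counts (y axis, log scale) of Gapdh, of Gm13394 and of the other near-identical copies summed, in each library (x axis; C control, E esculetin). Gm13394 lies at 45375 to 79930 counts in the 6 cell libraries and at 212 to 288 counts in the livers, where Gapdh held 2005 to 3290.

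Eno1 was the other member with a large share of counts in copies. Its 4 copies held 37.5% of the family's counts in the cells and 2.01% in the livers, mostly at Eno1b and Gm4735. With the copies summed, its log2 fold change in the cells was -0.05 ± 0.12 (edgeR adjusted p = 0.744), close to that of the single locus. Copies of Bnip3l held 7.31% in the cells and 5.62% in the livers, and those of the other members at most 1.81%.

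The regulators and the carriers at the end of the route also differed in direction. Pdk1, the kinase that shuts pyruvate out of the citric acid cycle by inhibiting pyruvate dehydrogenase, rose from 222 ± 11.6 to 290.2 ± 17.6 CPM (log2 0.38 ± 0.08, edgeR adjusted p = 0.00214). Slc16a3, the lactate exporter MCT4, rose from 435 ± 27.0 to 553 ± 74.4 CPM (log2 0.35 ± 0.10, edgeR adjusted p = 0.0139). Slc16a1 had 181, 176 and 180.5 CPM in control cells and 124, 119 and 117 CPM in esculetin cells (log2 -0.58 ± 0.08, edgeR adjusted p = 6.80e-05). The 2 monocarboxylate carriers thus moved apart, with no overlap of groups in either.

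Pfkfb3 and Pfkfb4 make and remove fructose 2,6-bisphosphate, the activator of phosphofructokinase. Pfkfb3 was 315 ± 7.54 CPM without and 315 ± 22.5 CPM with esculetin (log2 -0.00060 ± 0.08, edgeR adjusted p = 0.996). For Pfkfb4 the values were 34.0 ± 1.5 and 30.4 ± 3.18 CPM (log2 -0.16 ± 0.11, edgeR adjusted p = 0.240).

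Of the HIF alpha subunits among the 40, Hif1a was the one tested in the cells. Hif1a, the oxygen-regulated alpha subunit, had 219.9, 165 and 168 CPM in control cells and 313, 287 and 249 CPM in esculetin cells. The groups did not overlap, although control library 1 stood above the other controls. Its transcript rose by a log2 fold change of 0.62 ± 0.12 (edgeR adjusted p = 0.00126). Protein, the level at which HIF is mainly controlled, was not measured in these tables.

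Epas1, the alpha subunit HIF-2alpha, had 0 counts in all control cells and 0, 2 and 2 counts in esculetin cells. The hydroxylases that mark HIF, Egln1 and Egln3, were not called. Egln1 had 178.5 ± 7.05 and 203 ± 6.67 CPM (log2 0.19 ± 0.08, edgeR adjusted p = 0.0574), and Egln3 was low, at 2.69 ± 0.56 and 4.14 ± 1.27 CPM (log2 0.61 ± 0.29, edgeR adjusted p = 0.0911).

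Among the other hypoxia-inducible genes, Vegfa had the largest rise of the 38 members tested. Vegfa, the main angiogenic growth factor, had 179, 169 and 178 CPM in control cells and 627.5, 559 and 533.5 CPM in esculetin cells. Each esculetin library was far above the controls, and the fold change was 3.27 (log2 1.71 ± 0.09, edgeR adjusted p = 1.28e-07). Adm, the vasodilator peptide adrenomedullin, had 179, 176 and 179 CPM and then 308, 302 and 292 CPM (log2 0.76 ± 0.07, edgeR adjusted p = 8.91e-06).

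Both mitophagy receptors rose. Bnip3 had 451, 446.5 and 432 CPM in the controls and 723, 729 and 777 CPM with esculetin, a fold change of 1.68 (log2 0.74 ± 0.08, edgeR adjusted p = 1.58e-05). Bnip3l, its close relative NIX, rose by less, from 287 ± 19.5 to 334 ± 3.26 CPM (log2 0.22 ± 0.08, edgeR adjusted p = 0.0352). Higd1a, a small mitochondrial protein tied to the respiratory chain, rose from 56.0 ± 4.66 to 82.0 ± 8.33 CPM (log2 0.55 ± 0.10, edgeR adjusted p = 0.000746).

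Of the enzymes that use oxygen and 2-oxoglutarate, Kdm3a, a histone H3 lysine demethylase, rose from 126.5 ± 15.4 to 197 ± 15.4 CPM (log2 0.64 ± 0.10, edgeR adjusted p = 0.000291). P4ha1, a collagen prolyl hydroxylase subunit, rose from 344 ± 1.91 to 442 ± 43.9 CPM (log2 0.36 ± 0.09, edgeR adjusted p = 0.00452). Its relative P4ha2 had 2, 3 and 2 raw counts in control cells and 19, 13 and 9 in esculetin cells, under the filter of the test.

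Ddit4 and Mif fell. Ddit4, also called REDD1, is an inhibitor of mTORC1 that glucocorticoids and stress induce as well as HIF. It had 69.3, 74.9 and 74.0 CPM in control cells and 55.7, 45.4 and 35.2 CPM in esculetin cells (log2 -0.68 ± 0.14, edgeR adjusted p = 0.00144). Mif, the macrophage migration inhibitory factor, had 634, 756 and 721 CPM and then 392, 394 and 415 CPM, which was 56.9% of control (log2 -0.81 ± 0.09, edgeR adjusted p = 1.93e-05). Neither gene's groups overlapped.

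The remaining members were not called in the cells. Ndrg1, a gene induced by hypoxia and other stress, had 934 ± 50.5 and 1017 ± 51.2 CPM (log2 0.12 ± 0.09, edgeR adjusted p = 0.254). Ero1a, an oxidase of protein folding in the endoplasmic reticulum, spanned 1984 to 2284 CPM in the controls and 1844 to 2702 CPM with esculetin (log2 0.14 ± 0.13, edgeR adjusted p = 0.385). Ak4, a mitochondrial adenylate kinase, and Ankrd37 had log2 fold changes of -0.21 ± 0.09 (edgeR adjusted p = 0.0674) and -0.20 ± 0.09 (edgeR adjusted p = 0.0804).

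Some calls in the cells turned on 1 library. Pgk1 lost its call without control 2 (edgeR adjusted p = 0.0782), control 3 (0.100) or esculetin 2 (0.0575), and Hk1 without control 3 (0.0519) or esculetin 2 (0.0770). Bnip3l lost it without control 2 (0.123), control 3 (0.127) or esculetin 2 (0.118). Gapdh lost it without control 1 (0.123), control 3 (0.0884), esculetin 1 (0.0921) or esculetin 2 (0.105). In the other direction, Tpi1 (0.0147), Eno2 (0.00956), Egln3 (0.0119), Ero1a (0.0318) and Ak4 (0.0120) gained a call without esculetin 3, and Pfkp (0.0405), Egln1 (0.0489) and Ankrd37 (0.0427) without esculetin 1, the library with more ribosomal RNA. With all libraries kept, some of these genes also gained a call under other settings. Egln1 did with DESeq2 (adjusted p = 0.0491) and in edgeR with RLE size factors (0.0469), the upper quartile (0.0472) or a filter at 1 CPM (0.0377). Pfkp did with limma-voom (0.0492). With library size only, edgeR called Pfkp (0.0303), Ankrd37 (0.0329), Tpi1 (0.0300) and Ak4 (0.0136). Without esculetin 1, 26 members were called, 3 glycolytic enzymes higher and 7 lower. Without esculetin 3 the count was 30, and without esculetin 2 it was 20. The share of all tested genes called in the cells without 1 library was not counted, so these shifts cannot be set against it.

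**Figure D4:**
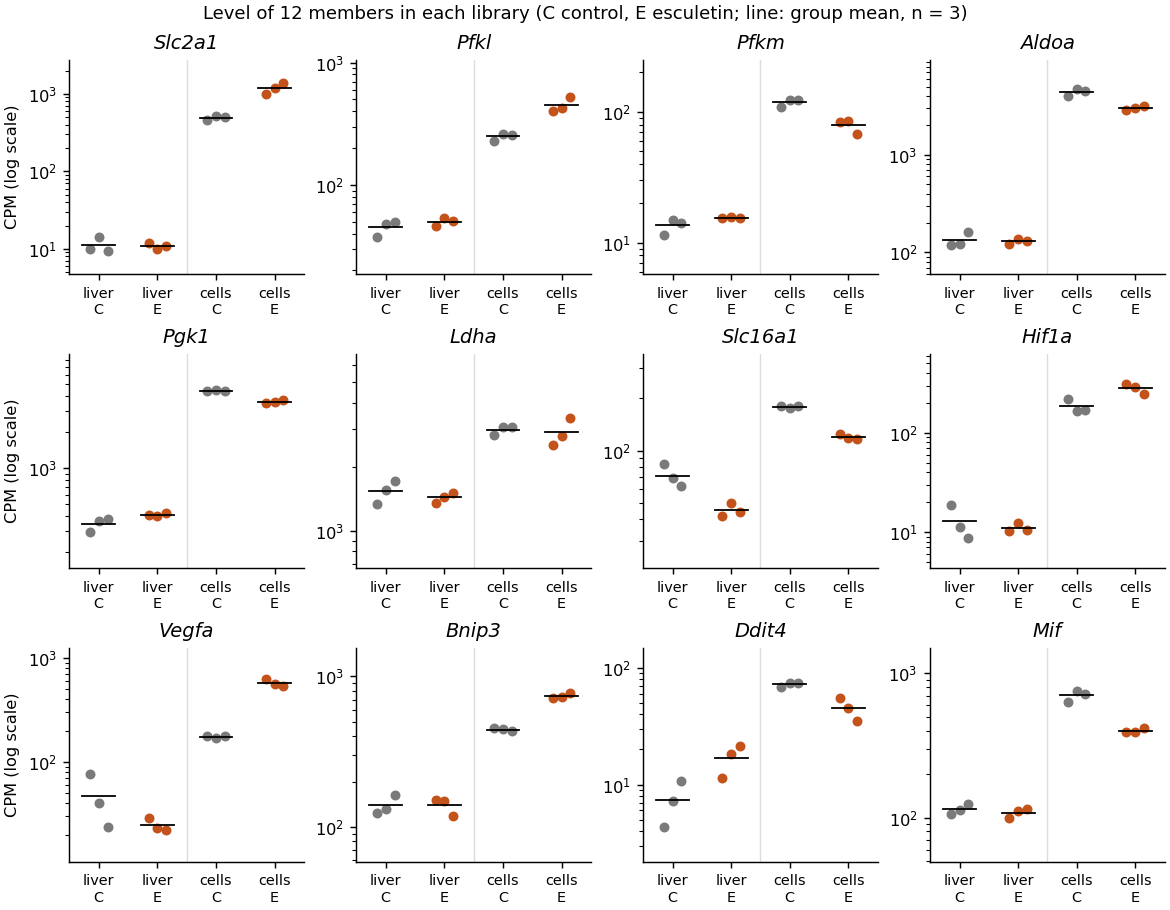
CPM (y axis, log scale) of 12 members in every library of the 4 groups (x axis; C control, E esculetin), with the group mean as a line (n = 3). In the cells Slc2a1 lies at 456 to 513 CPM in controls and 1010 to 1367 CPM with esculetin, and the groups of Ldha overlap. In the livers the groups of Pfkm, Pgk1, Slc16a1 and Ddit4 are apart. The 12 genes were picked for display, and the share of all tested genes with groups apart was not counted.

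In the livers of HFD-fed mice no member was called. Of 37 members tested with edgeR, 0 passed at an adjusted p-value under 0.05, where 0.0859% of all 12813 tested genes did. Limma-voom also called 0 members. DESeq2 called 2, and the share of all genes that it called was not counted. At an unadjusted p-value under 0.05, edgeR gave 6 members, 2 higher and 4 lower, where 8.37% of all tested genes passed. The median log2 fold change was -0.08 over the members and -0.02 over all tested genes. With the threshold of the study's methods, an unadjusted limma p-value under 0.05 beside more than a 1.5-fold change, 5 members passed, 2 higher and 3 lower, where 3.89% of the genes tested with limma passed. Eno2, Slc16a3 and Ankrd37 were too low in the liver to be tested. Libraries were made from whole liver, so that fewer cells of a type and less RNA per cell cannot be told apart.

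Slc16a1 had the smallest p-value of the members in the liver. Its values were 83.1, 69.5 and 62.1 CPM in control livers and 42.0, 49.7 and 44.3 CPM in esculetin livers. The groups did not overlap, and the esculetin livers stood at 63.4% of control (log2 -0.66 ± 0.14, edgeR adjusted p = 0.138). Without liver control 3 the edgeR adjusted p-value was 0.0459, and over all alternatives it ran from 0.000381 to 0.773. DESeq2 called the difference (adjusted p = 0.00729), and so did edgeR with the replicate numbers as a block (0.0192).

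Ddit4 had the highest positive fold change. It had 4.36, 7.20 and 10.7 CPM in control livers and 11.3, 18.4 and 21.3 CPM in esculetin livers (log2 1.19 ± 0.30, edgeR adjusted p = 0.244). The lowest esculetin liver lay just above the highest control. DESeq2 called this difference (adjusted p = 0.00743), and so did edgeR without a filter on low counts (1.64e-07) or with the replicate numbers as a block (0.00064). The adjusted p-value over all alternatives ran up to 0.848. Pfkfb3 was low, with 3.93, 2.17 and 3.03 CPM in control livers and 5.29, 3.77 and 7.31 CPM in esculetin livers, groups that overlapped (log2 0.85 ± 0.30, edgeR adjusted p = 0.472).

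Vegfa spread widely among the control livers. It had 77.0, 40.2 and 23.9 CPM in control livers and 29.2, 23.1 and 22.1 CPM in esculetin livers (log2 -0.92 ± 0.31, edgeR adjusted p = 0.458, from 1.34e-07 without a filter on low counts to 0.994 over the alternatives). With the replicate numbers as a block, the edgeR adjusted p-value of Vegfa was 0.0338. Control 1, the liver with the largest mitochondrial share, was also the highest for Hif1a at 18.7 CPM against 8.68 to 12.2 in the others and for Ero1a at 18.4 CPM against 7.57 to 11.2. Without it, the log2 fold change of Hif1a went from -0.23 to 0.14 and that of Vegfa from -0.92 to -0.37. Hk2 was low in the liver, with 2.46, 1.38 and 1.52 CPM and then 0.93, 1.23 and 0.65 CPM (log2 -0.92 ± 0.38, edgeR adjusted p = 0.552).

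No glycolytic enzyme was called in the liver. Apart from Hk2, and Eno2 which was not tested, their log2 fold changes ran from -0.15 for Gapdh to 0.25 for Pgk1, whose groups of 295, 363 and 376 CPM and of 410, 396.5 and 422 CPM did not overlap (edgeR adjusted p = 0.636). Ldha had 1536 ± 191 CPM in control livers and 1435 ± 76.9 CPM in esculetin livers (log2 -0.10 ± 0.14, edgeR adjusted p = 0.875). Epas1, the alpha subunit that was absent from control cells, had 128 ± 13.6 CPM and 117 ± 21.1 CPM in the livers (log2 -0.13 ± 0.15, edgeR adjusted p = 0.839).

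The levels per length showed which genes each table used for a step. In control livers the highest of the glycolytic enzymes was Ldha, at 1104 TPM (counts per kilobase of merged exons, scaled to the same sum in every library), followed by Tpi1 at 742 TPM and Pgk1 at 523 TPM. In control cells Pgk1 led at 8141 TPM, followed by Pkm at 3669, Pgam1 at 3392 and Aldoa at 3374 TPM. This order rested on the length used, since with canonical transcripts Pkm led at 11630 TPM and Aldoa followed at 6944 TPM. It also left out the copies. Gapdh stood at 143 TPM at its own locus, whereas 93.5% of its family's counts in the cells were assigned to copies, so its place in the order is not known. Of the liver isoforms outside the 40, the pyruvate kinase Pklr had 150 TPM and the glucose carrier Slc2a2 had 86.2 TPM in control livers, and both had 0 counts in control cells.

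The effect of esculetin was compared between the cells and the liver in a model of all 12 libraries. The difference of the effects passed at an edgeR adjusted p-value under 0.05 for 15 of 40 members, where 27.1% of all 15709 tested genes passed, and 9 of the differences were positive and 6 negative. Vegfa differed by 2.59 ± 0.38 on the log2 scale (edgeR adjusted p = 0.000137), with a log2 fold change of 1.71 in the cells and -0.92 in the liver. Slc2a1 differed by 1.29 ± 0.22 (edgeR adjusted p = 0.000383), and its log2 fold change in the liver was -0.05. Ddit4 differed by -1.91 ± 0.36 (edgeR adjusted p = 0.00107), since it fell in the cells and was higher, without a call, in all 3 esculetin livers. The fall of Slc16a1 in the cells and its lower level in the liver were of similar size, with a difference of 0.04 ± 0.16 (edgeR adjusted p = 0.954), which does not show that the effects were equal. Tissue, dose, route of treatment and lipid load all differed between the tables and cannot be told apart in these differences.

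**Figure D5:**
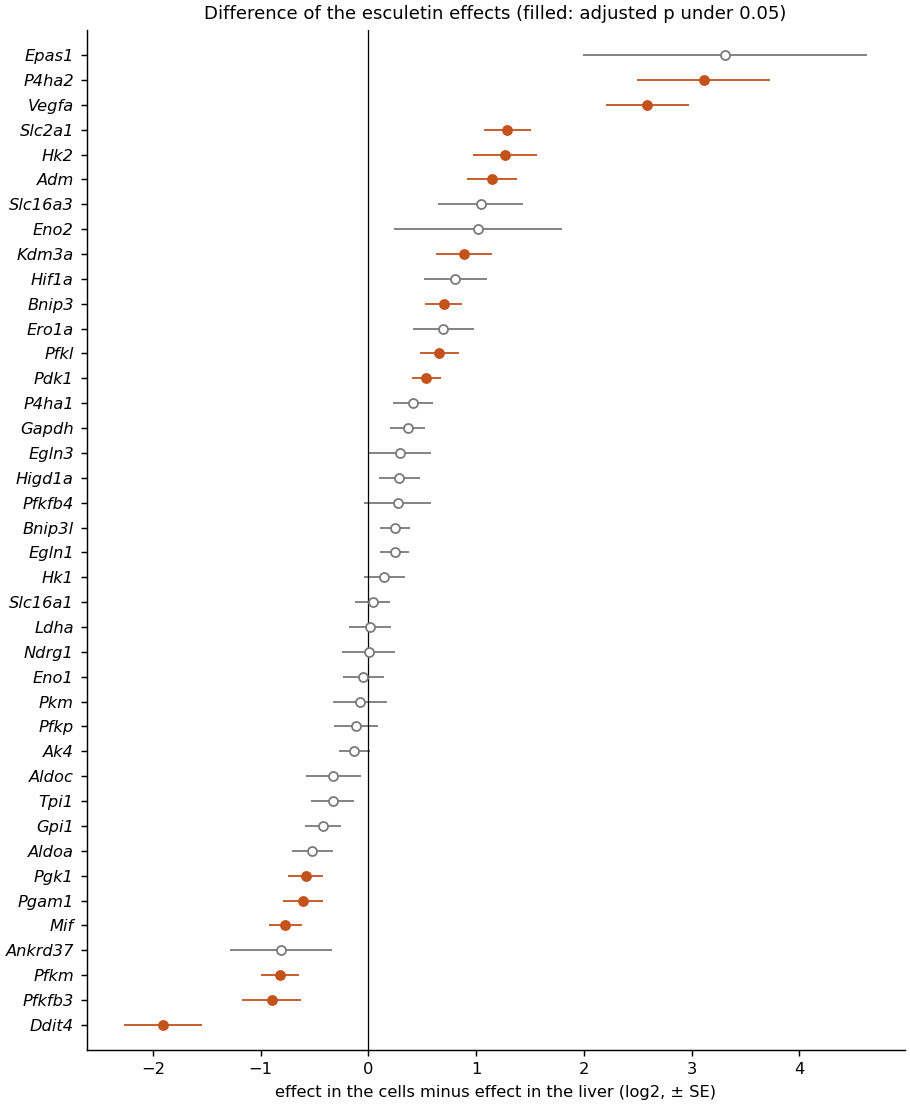
Effect of esculetin in the cells minus its effect in the liver (x axis, log2, ± SE) for the 40 members (rows), from a model of all 12 libraries; filled points passed an edgeR adjusted p-value under 0.05. The 15 filled points run from Ddit4 at -1.91 to P4ha2 at 3.11.

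Other genes of the pathway, taken from lists set by role, were also called in both directions in the cells. Of 58 tested, 41 were called, 21 higher and 20 lower, with a median log2 fold change of 0.0022, where 57.7% of all tested genes were called, 28.7% higher and 29.0% lower. In the liver 1 of 64 was called, where 0.0859% of all tested genes were. This was Pdk4, a pyruvate dehydrogenase kinase induced by fasting and fatty acids, with 20.0, 23.7 and 16.4 CPM in control livers and 6.38, 9.48 and 6.67 CPM in esculetin livers. The groups were far apart (log2 -1.42 ± 0.20, edgeR adjusted p = 0.0225), and the call was lost without liver control 2, esculetin 1 or esculetin 3.

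The counts of the single lists in the cells are to be read against those shares over all tested genes. Of 11 tested isoforms of the same steps, 1 rose and 5 fell. The rise was that of Hk3, and the falls were those of Eno3 (log2 -1.09 ± 0.11, edgeR adjusted p = 8.65e-06), Slc2a3, Pfkfb2, Pdk2 and Pdk3. Eno3 is the muscle enolase, and Slc2a3 the glucose carrier GLUT3. Slc2a3 had 33 TPM in control cells per kilobase of merged exons, where Slc2a1 had 434 TPM.

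Of 12 tested HIF partners and regulators in the cells, 6 rose and 2 fell, where 57.7% of all tested genes were called. Hif1an, the asparaginyl hydroxylase that blocks HIF activity, had 37.7, 36.8 and 36.1 CPM in control cells and 68.9, 85.6 and 86.7 CPM in esculetin cells (log2 1.12 ± 0.10, edgeR adjusted p = 5.32e-06). Vhl, the ubiquitin ligase subunit that binds hydroxylated HIF, rose from 51.5 to 56.7 CPM up to 77.9 to 82.3 CPM (log2 0.57 ± 0.08, edgeR adjusted p = 0.000139). Both of these products restrain HIF, and both transcripts rose beside Hif1a, but they are only 2 of the 6 rises. Other genes of the list had different roles or went the other way. Crebbp had 12.4 ± 0.51 TPM in control cells and 16.9 ± 0.031 TPM with esculetin. Rbx1 had 54.3 ± 0.90 TPM and then 42.5 ± 3.72 TPM. A combined effect of the list on HIF was not tested. Arnt, the constant partner subunit, had a log2 fold change of -0.20 ± 0.08 (edgeR adjusted p = 0.0506), and Hif3a, a low-level inhibitory subunit, fell (log2 -1.30 ± 0.39, edgeR adjusted p = 0.0137).

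Among 20 further hypoxia-inducible genes tested in the cells, 11 rose and 4 fell, where 28.7% of all tested genes were higher and 29.0% lower. Tfrc, the transferrin receptor, had 68.0, 51.2 and 55.0 CPM in control cells and 855, 1003 and 1181 CPM in esculetin cells (log2 4.12 ± 0.15, edgeR adjusted p = 2.04e-08). Hmox1, heme oxygenase 1, which many stresses other than hypoxia induce, rose from 318 to 362 CPM up to 3582 to 6500 CPM (log2 3.84 ± 0.20, edgeR adjusted p = 1.15e-07). Car9, carbonic anhydrase 9, a classic HIF target, fell from 13.6 to 16.7 CPM down to 7.32 to 8.32 CPM (log2 -0.95 ± 0.14, edgeR adjusted p = 0.000152).

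Some genes of this list act on glycogen and were singled out after their values were seen. Gys1, muscle glycogen synthase, rose by a log2 fold change of 0.91 ± 0.09 (edgeR adjusted p = 5.97e-06), Gbe1, the branching enzyme, by 0.47 ± 0.11 (edgeR adjusted p = 0.00298) and Pgm1, phosphoglucomutase, by 0.33 ± 0.08 (edgeR adjusted p = 0.00377). Ppp1r3c and Pygl, the other glycogen genes of the list, were too low in the cells to be tested.

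Genes that pass pyruvate into the mitochondria were the next list. Of 8 tested in the cells, 5 fell and 3 were not called, where 57.7% of all tested genes were called and 29.0% were lower, and the list is described without a test of its own. Mpc2, a subunit of the mitochondrial pyruvate carrier, had 27.1, 32.3 and 30.8 CPM in control cells and 15.1, 14.2 and 15.7 CPM in esculetin cells (log2 -1.0 ± 0.12, edgeR adjusted p = 2.72e-05). Its partner Mpc1 fell by 0.68 on the log2 scale (edgeR adjusted p = 0.00318), and Pdha1, the alpha subunit of pyruvate dehydrogenase, by 0.59 (edgeR adjusted p = 0.000129). Of the kinases that inhibit this enzyme, Pdk2 fell (log2 -1.70 ± 0.17, edgeR adjusted p = 1.02e-05) and Pdk3 fell (log2 -0.30 ± 0.09, edgeR adjusted p = 0.0129), while Pdk1 rose as above.

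The pentose phosphate branch leaves glycolysis at glucose 6-phosphate, and its genes moved in both directions. All 7 genes tested in the cells were called, 3 higher and 4 lower, where 57.7% of all tested genes were called. Of the oxidative arm, which makes NADPH, G6pdx rose (log2 0.49 ± 0.13, edgeR adjusted p = 0.00694) and Pgd rose (log2 0.94 ± 0.18, edgeR adjusted p = 0.000932), while Pgls between them fell (log2 -0.78 ± 0.09, edgeR adjusted p = 2.36e-05). Of the non-oxidative arm, Tkt, transketolase, had 600.3, 705 and 674 CPM in control cells and 323.5, 363 and 406 CPM in esculetin cells (log2 -0.86 ± 0.10, edgeR adjusted p = 3.43e-05). Taldo1 and Rpia fell as well, and Rpe rose. The 7 macrophage markers differed in sum between the cell groups as well (4908 to 7409 CPM with esculetin against 2220 to 2386 CPM without), and their part in these results was not tested. Lyz2 alone had 2584 to 4704 CPM with esculetin, so the sum does not show that each marker rose.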

How the data were processed

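Gene expression was measured by RNA-seq in 12 libraries (6 livers, 6 RAW264.7 samples). Raw counts per gene were deposited by the authors in 1 table for each. According to the methods, reads were aligned to GRCm39 with HISAT2 2.2.1 and counted with featureCounts. Strandedness, the treatment of reads with several matches and the annotation release were not given in the sources used here, and GEO's processing notes also named mm10. Reads that match several loci can be lost or split, which affects members with copies.

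Identifiers were named with GENCODE release M39, in which 54749 of 55357 matched. Members and lists were chosen with earlier results of these data known. All 40 members, and any gene of the lists, could be named. Some genes of the lists are not reported here. Each table was fitted alone with edgeR 4.0.16 (R 4.3.3; filterByExpr, TMM, quasi-likelihood, treatment only), and the difference of effects with 4 group means. P-values were two-sided and adjusted by Benjamini-Hochberg over all genes tested. CPM used TMM factors, computed for each table separately, and their errors are SD over 3 libraries. SEs were obtained from each estimate and its F statistic. An exact permutation test of 3 against 3 cannot give p under 0.1. The common biological coefficient of variation was 16.5% (liver) and 11.8% (cells), and depth is the total count per library. Scripts were tested on simulated data. Alternatives were DESeq2 1.42.0, limma 3.58.1, other scalings and filters, the replicate block and leaving out each library. Sums over copies found with BLAST+ 2.17.0 and canonical lengths were added after the data were seen. Figures were drawn with matplotlib 3.10.9.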

Additional observations from a re-analysis of the deposited data

Results flagged for a closer look

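The effect of esculetin differed between the cells and the liver, by the edgeR test of the difference itself, for 15 members. The values are the log2 effect in the cells minus that in the liver. Positive differences were found for P4ha2 (3.11), Vegfa (2.59), Slc2a1 (1.29), Hk2 (1.27), Adm (1.15), Kdm3a (0.89), Bnip3 (0.70), Pfkl (0.66) and Pdk1 (0.54). Negative differences were found for Ddit4 (-1.91), Pfkfb3 (-0.90), Pfkm (-0.82), Mif (-0.77), Pgam1 (-0.61) and Pgk1 (-0.58). For P4ha2 the value rests on 2, 3 and 2 counts in control cells and depends on how the model treats such counts. In Pfkfb3 the effect in the liver was the larger one, and in Hk2 the liver held at most 40 counts per library. The difference was called in all 18 alternatives for 11 of the 15, the exceptions being Pgk1, Pgam1, Pfkfb3 and Kdm3a. Pgk1 lost it without liver esculetin 1 (adjusted p = 0.0725), esculetin 2 (0.0556) or esculetin 3 (0.0769). Pgam1 lost it without the same 3 livers (0.0811, 0.0633 and 0.0850) or cells control 2 (0.0529). Pfkfb3 lost it without liver control 2 (0.0960), esculetin 1 (0.0539) or esculetin 3 (0.120), and Kdm3a without cells control 2 (0.0520), liver control 2 (0.0642) or liver esculetin 3 (0.0579).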

How the results depend on the processing

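In the cells 20 of 24 calls were kept in all 15 alternatives, and Hk1, Gapdh, Pgk1 and Bnip3l lost theirs in some. With the criterion of the methods, and with an added fold change over 1.5, the cells gave 10 of 38 members tested, 1 glycolytic enzyme higher and 1 lower, and 6 other members higher. Of all 13277 genes tested in the cells, the criterion of the methods called 2551 higher and 2490 lower. The adjusted p-value with the added fold change called 36.5%. With library size only, 5 other members were lower. Leaving out 1 library gave 20 to 30 members in the cells, 2 to 5 glycolytic enzymes higher and 5 to 7 lower, and 10 to 14 other members higher and 3 to 4 lower. In the liver, DESeq2 called 2 members, no filter 3, the criterion of the methods 5, and leaving out 1 library 0 to 1. In the cells, the liver and their difference, the share of all genes called was not counted for these alternatives. They are DESeq2, no filter, library size only, the replicate block and the fits without 1 library. The pathway lists in the liver gave 0 with library size only and 0 to 1 without 1 library. Same-numbered correlations were 0.140, -0.0053 and 0.103 for livers and 0.165, -0.030 and 0.0796 for cells, and not every library correlated best with its own number. With 3 libraries per group these values cannot decide whether the replicate numbers pair samples. The replicate block gave 24 members in the cells, 18 differences between cells and liver, and 3 liver members. Their edgeR adjusted p-values in the liver were 0.0192 (Slc16a1), 0.0338 (Vegfa) and 0.00064 (Ddit4). With copies summed Gapdh was -0.14 (cells) and 0.020 (liver). Leaving out 1 library gave log2 ranges in the liver of Hk1 -0.053 to 0.21, Aldoa -0.13 to 0.083, Aldoc -0.31 to 0.14, Tpi1 -0.052 to 0.20, Eno1 -0.12 to 0.047, Pkm -0.068 to 0.30, Slc2a1 -0.18 to 0.17, Hif1a -0.46 to 0.14, Bnip3 -0.070 to 0.11, Bnip3l -0.13 to 0.012, Ndrg1 -0.22 to 0.29 and P4ha1 -0.22 to 0.046. In the cells it gave Eno1 -0.14 to 0.052, Pkm -0.063 to 0.14, Ldha -0.17 to 0.048 and Pfkfb3 -0.057 to 0.045. Bnip3 in the liver was -0.0098 with a filter at 1 CPM and -0.051 with library size only. In the cells Pkm was -0.019 with library size only, and Pfkfb3 was 0.016 with DESeq2, 0.016 with RLE size factors, 0.015 with the filter and 0.0053 with the upper quartile. The cause of these changes was not tested. Counts of 10 to 40 per library limit Hk2, Adm and Pfkfb4 in the liver.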
